A study of Mus musculus with 10 samples.

Results

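Anoctamins (TMEM16 proteins) were followed through 8 genes, Ano1, Ano2, Ano4, Ano5, Ano6, Ano8, Ano9 and Ano10, among 57185 genes with counts in ventricular RNA. The group was chosen by symbol and was selected on the difference in Ano10 between the same 2 genotypes, so the values below describe its members and are not a test of them. Of the 8 genes, 5 passed the filter on low counts and were among the 13451 genes tested. Ano2, Ano5 and Ano9 did not pass.

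RNA was taken from the apical ventricle of 5 MLPKO and 5 cRADΔ/Δ-MLPKO male mice at 16 weeks of age (labels). Both groups were knockouts of muscle LIM protein by their labels (MLP, encoded by Csrp3), a model of dilated cardiomyopathy, carried floxed alleles of the gene for RAD (Rrad) on both chromosomes, and received tamoxifen at 100 mg/kg at 10 weeks of age. The labels also put the hearts at 1 month after tamoxifen, which does not match 16 weeks of age. The cRADΔ/Δ-MLPKO mice (MLPKO-cRADKO in the labels) also carried MYH6-MerCreMer, a tamoxifen-activated Cre recombinase driven in cardiomyocytes by an alpha myosin heavy chain promoter, and the MLPKO mice did not. The loss of RAD and the presence of active Cre therefore cannot be told apart in these groups. Each library came from 1 mouse, and the count of a gene sums all cell types of the tissue, so that fewer cells of a type and less RNA per cell cannot be told apart.

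Anoctamins are membrane proteins that respond to calcium, and the family holds both chloride channels and scramblases, which move phospholipids between the leaflets of a membrane. ANO1 and ANO2 are calcium-activated chloride channels, and ANO6 is the scramblase that exposes phosphatidylserine on activated platelets. Other members reside largely in intracellular membranes, among them ANO5, whose loss causes muscular dystrophy, ANO8, a tether between the endoplasmic reticulum and the plasma membrane, and ANO10, which is mutated in a recessive cerebellar ataxia that can come with low coenzyme Q.

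Total counts per mouse were 33457406 to 49965101. Rrad was at 140 to 282 CPM (counts per 1000000 counts of the library) in MLPKO and 135 to 202 in cRADΔ/Δ-MLPKO, a log2 fold change of −0.38 (SE 0.20, edgeR adjusted p = 0.290), so the gene count did not separate the genotypes. By western blot, the study reported that RAD protein was lost in cRADΔ/Δ-MLPKO hearts after tamoxifen. Csrp3, labelled as knocked out in both groups, was counted in all 10 mice, at 1009 to 3261 CPM in MLPKO and 691 to 1177 CPM in cRADΔ/Δ-MLPKO, a log2 fold change of −1.08 (SE 0.29, edgeR adjusted p = 0.0666, DESeq2 adjusted p = 0.0362). For Rrad and Csrp3 alike, counts per gene do not show which exons were read, so these counts neither show nor contradict the labelled knockouts. MLPKO mouse 2 stood apart, with a score of 55.7 on the first principal component against −24.0 to 22.5 in the other 9 mice.

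Ano10 was the member that separated the genotypes. It was about 3-fold higher in cRADΔ/Δ-MLPKO, while Ano1, Ano4, Ano6 and Ano8 overlapped between the genotypes and Ano2, Ano5 and Ano9 were at or near 0 counts. Ano10 (ENSMUSG00000037949) lies on the minus strand of chromosome 9, at chr9:122004940-122124498 in GRCm39. Its CPM (TMM) was 23.5, 19.5, 24.1, 27.5 and 21.9 in MLPKO mice 1 to 5. In cRADΔ/Δ-MLPKO mice 1 to 5 it was 60.5, 71.2, 65.7, 77.2 and 69.2. The lowest cRADΔ/Δ-MLPKO mouse was thus more than 2-fold above the highest MLPKO mouse. The raw counts behind these values were 616 to 1220 in MLPKO and 2022 to 3467 in cRADΔ/Δ-MLPKO. The mean was 23.3 ± 2.95 (SD, n = 5) CPM in MLPKO and 68.8 ± 6.22 (SD, n = 5) CPM in cRADΔ/Δ-MLPKO, a log2 fold change of 1.56 (SE 0.09, 95% interval 1.36 to 1.77), or 2.95-fold (2.56 to 3.40). The relative spread between mice of a genotype was small, with a coefficient of variation of 12.7% in MLPKO and 9.04% in cRADΔ/Δ-MLPKO. Leaving out single mice moved the log2 fold change of Ano10 to between 1.50 and 1.63, and it was 1.50 without MLPKO mouse 2.

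**Figure D1:**
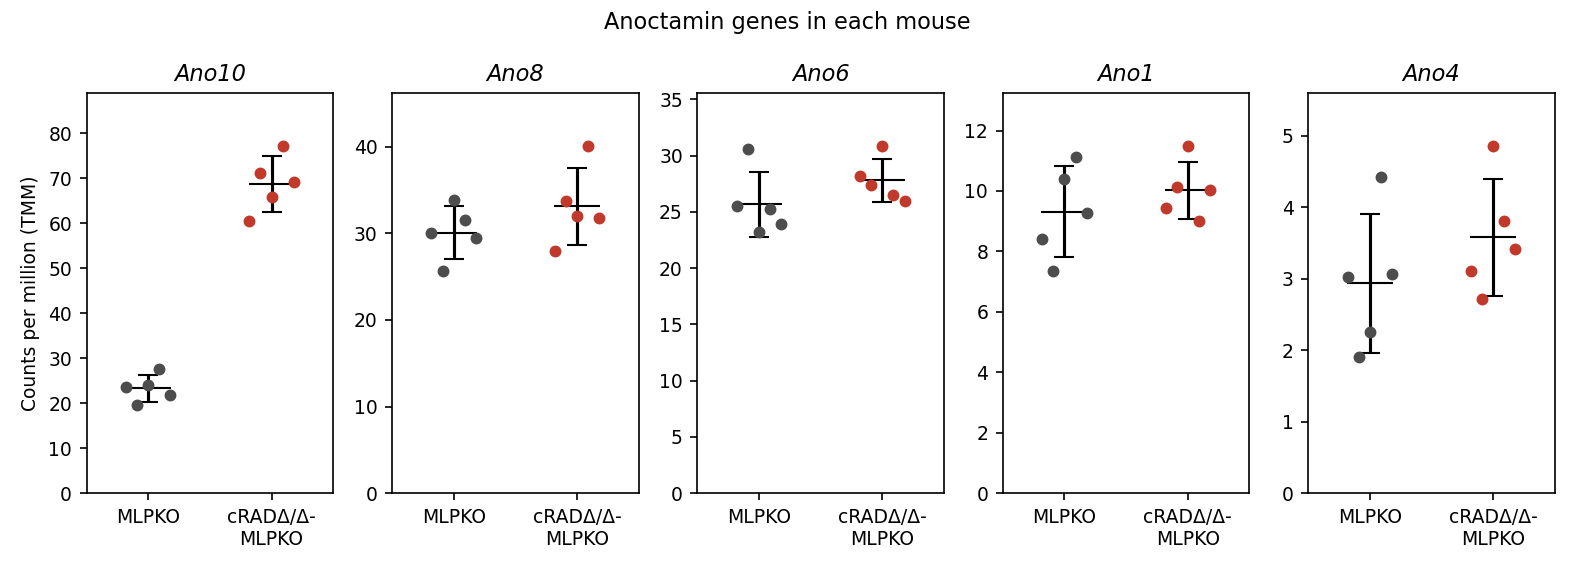
TMM-normalized CPM of the 5 anoctamin genes that passed the count filter, each point a mouse (1 to 5 from left to right), with the mean (line) and SD (bar) of MLPKO (grey) and cRADΔ/Δ-MLPKO (red) and an axis from 0 for each gene. Ano10 ran from 19.5 to 27.5 CPM in MLPKO and from 60.5 to 77.2 CPM in cRADΔ/Δ-MLPKO, while the points of the other 4 genes overlapped.

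The 250 bases before the RefSeq start of Ano10 are shown with those of Ano6, a member whose level overlapped between the genotypes, so that the promoter of the member that separated the genotypes can be read beside that of a member that did not separate them. Both are from RefSeq on GRCm38.p6 and run 5′ to 3′ on the strand of the gene, and capitals mark GGGCGG, the core of a GC box, or its reverse complement CCGCCC. The Ano10 window is chr9:122294424-122294673 (minus strand) and the Ano6 window is chr15:95790593-95790842 (plus strand).
Ano10: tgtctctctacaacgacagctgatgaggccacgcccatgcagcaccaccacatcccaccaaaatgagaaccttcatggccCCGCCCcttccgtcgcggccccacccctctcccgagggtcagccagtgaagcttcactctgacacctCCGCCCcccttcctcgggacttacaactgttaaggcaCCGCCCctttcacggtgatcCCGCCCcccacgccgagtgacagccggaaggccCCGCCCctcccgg
Ano6: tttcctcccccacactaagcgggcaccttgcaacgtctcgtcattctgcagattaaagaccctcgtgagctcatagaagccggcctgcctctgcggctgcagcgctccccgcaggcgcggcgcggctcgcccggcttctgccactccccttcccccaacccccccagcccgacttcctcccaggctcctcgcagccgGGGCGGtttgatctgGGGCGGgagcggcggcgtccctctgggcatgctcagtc
Ano10 held 5 GC-box cores, all as CCGCCC on the printed strand, and Ano6 held 2, both as GGGCGG. Of other members whose levels overlapped between the genotypes, Ano1 held 4 such cores and Ano4 held 0. With 1 member that separated the genotypes, a relation between the number of cores and the separation cannot be judged and was not tested. At least 1 such core was present in 32.7% of all 32851 RefSeq windows of this length. The GC content was 65.2% for Ano10 and 68.4% for Ano6, against a median of 52.4% over all windows, and the windows held 17 and 22 CpG dinucleotides, against a median of 6. On either strand, neither window held a TATA box (TATAAA), present in 12.4% of all windows, or the core CCAAT, present in 33.8%. Nor did they hold the GATA factor core GATAA, present in 22.6%, the E-box with the letters CACGTG, present in 6.02%, or a CArG box, present in 1.47%. The half-site TGACG of cyclic AMP response elements was present 1 time in Ano6 and not in Ano10, against 17.8% of all windows. None of the motifs found overlapped another. RefSeq windows were matched for 6 of the 8 members, all but Ano8 and Ano9.

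Among the chloride channel members, Ano1 (ENSMUSG00000031075, chr7:144142278-144305711, minus strand) was counted at a low level in all mice. Its CPM was 8.41, 7.35, 10.4, 11.1 and 9.27 in MLPKO mice 1 to 5 and 9.43, 10.1, 11.5, 9.02 and 10.0 in cRADΔ/Δ-MLPKO mice 1 to 5. The lowest mice were MLPKO mice 1 and 2, and the other 3 MLPKO mice lay within the cRADΔ/Δ-MLPKO range. The mean was 9.31 ± 1.51 (SD, n = 5) CPM in MLPKO and 10.0 ± 0.943 (SD, n = 5) CPM in cRADΔ/Δ-MLPKO, a log2 fold change of 0.10 (SE 0.12, 95% interval −0.15 to 0.36). Ano2 (ENSMUSG00000038115, chr6:125667059-126017116, plus strand), the channel of olfactory neurons and photoreceptors, had 2 counts in MLPKO mouse 5 and 0 in the other 9 mice. A count of 0 allows a level of up to 0.0592 to 0.0951 CPM at the depths of these libraries, taking 3 counts as the floor and counting error only. Were each fragment counted as 2 reads, the floor would be 6 counts and the limit 0.118 to 0.190 CPM, and the setting for read pairs is not given in the sources used here.

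Ano6 (ENSMUSG00000064210, chr15:95688613-95873353, plus strand), the plasma membrane scramblase, had a CPM of 25.5, 30.6, 23.2, 25.3 and 23.9 in MLPKO mice 1 to 5. It had 28.2, 27.4, 30.9, 26.5 and 26.0 in cRADΔ/Δ-MLPKO mice 1 to 5. Of the MLPKO mice, 4 lay below all cRADΔ/Δ-MLPKO mice, and MLPKO mouse 2 was above 4 of the 5 cRADΔ/Δ-MLPKO mice. The mean was 25.7 ± 2.90 (SD, n = 5) CPM in MLPKO and 27.8 ± 1.92 (SD, n = 5) CPM in cRADΔ/Δ-MLPKO, a log2 fold change of 0.12 (SE 0.08, 95% interval −0.06 to 0.29). Ano6 shares bases with 5 noncoding genes on the opposite strand, of which Gm49172 had the most counts, 1422 summed over the 10 mice against 10943 for Ano6. Whether strand was used in counting is not given in the sources used here.

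Ano4 (ENSMUSG00000035189, chr10:88784789-89181063, minus strand), for which both scramblase and cation channel activity have been described, was the lowest of the 5 members tested. Its CPM was 3.03, 1.90, 2.25, 4.43 and 3.07 in MLPKO mice 1 to 5 and 3.11, 2.72, 4.86, 3.81 and 3.42 in cRADΔ/Δ-MLPKO mice 1 to 5. The genotypes overlapped over most of their range. Ano4 also varied most between mice of a genotype, with a coefficient of variation of 33.2% in MLPKO and 22.8% in cRADΔ/Δ-MLPKO, and its log2 fold change of 0.29 (SE 0.23, 95% interval −0.22 to 0.79) had the widest interval of the 5.

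Ano8 (ENSMUSG00000034863, chr8:71927360-71938752, minus strand), the tether, had a CPM of 30.0, 25.6, 33.8, 31.5 and 29.5 in MLPKO mice 1 to 5. It had 27.9, 33.8, 32.0, 40.1 and 31.8 in cRADΔ/Δ-MLPKO mice 1 to 5. cRADΔ/Δ-MLPKO mouse 4 was highest, MLPKO mouse 2 was lowest, and the other 8 mice lay between 27.9 and 33.8. The mean was 30.1 ± 3.02 (SD, n = 5) CPM in MLPKO and 33.1 ± 4.45 (SD, n = 5) CPM in cRADΔ/Δ-MLPKO, a log2 fold change of 0.14 (SE 0.10, 95% interval −0.08 to 0.35). Ano8 overlaps Dda1, a gene on the opposite strand, by 1394 bases, and Dda1 had 16137 counts summed over the 10 mice against 13202 for Ano8, with a log2 fold change of −0.16 (edgeR adjusted p = 0.151). The only gene annotated within the span of Ano10 was the microRNA gene Mir8106, at 0 counts.

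Ano5 (ENSMUSG00000055489, chr7:51160595-51249083, plus strand), the muscular dystrophy gene, had 2 counts in MLPKO mouse 3 and 0 in the other 4 MLPKO mice. In cRADΔ/Δ-MLPKO it had 0, 2, 4, 0 and 4 counts in mice 1 to 5. Ano9 (ENSMUSG00000054662, chr7:140680854-140697758, minus strand), best known from epithelia, had 2 counts in MLPKO mice 1 and 3, 2 in cRADΔ/Δ-MLPKO mouse 2, 4 in cRADΔ/Δ-MLPKO mouse 3 and 0 in the other mice. Over Ano2, Ano5 and Ano9, 9 of 30 values were above 0 and all 9 were even numbers. A difference between the genotypes was not detectable at this depth for these 3 genes. The members of the family outside the group were also low, with 4 to 24 counts per mouse for Ano3, a log2 fold change of 0.44 (SE 0.45, 95% interval −0.54 to 1.43), and 0 to 4 counts per mouse for Ano7.

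Per length, the order of the family changed between the genotypes. CPM was divided by the kilobases of the union of exons of each gene (GENCODE M39), 9054 bases for Ano10 and 6496 to 15310 bases for the other 4 members tested. In MLPKO, Ano8 was highest at 3.36 ± 0.337 (SD, n = 5) CPM per kb, followed by Ano10 at 2.57 ± 0.326, Ano6 at 1.68 ± 0.190, Ano1 at 1.43 ± 0.232 and Ano4 at 0.280 ± 0.0930. Over the MLPKO mice, Ano8 overlapped with Ano10 and Ano6 overlapped with Ano1, while the other neighbours in this order did not overlap. In cRADΔ/Δ-MLPKO, Ano10 came first at 7.59 ± 0.687 (SD, n = 5) CPM per kb, followed by Ano8 at 3.69 ± 0.496, Ano6 at 1.82 ± 0.125, Ano1 at 1.54 ± 0.145 and Ano4 at 0.342 ± 0.0782. There, of the neighbours in the order, Ano6 and Ano1 overlapped and the others did not. With the longest annotated transcript as the length the order of the means was the same, but Ano10 (4.59 to 6.47 CPM per kb) overlapped with Ano6 (3.97 to 5.23) in MLPKO, and Ano6 did not overlap with Ano1 in either genotype.

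The summed level of the 8 members was 9.33 ± 0.768 (SD, n = 5) CPM per kb in MLPKO and 15.0 ± 1.11 in cRADΔ/Δ-MLPKO. Without Ano10, the sum was 6.75 ± 0.454 CPM per kb in MLPKO and 7.40 ± 0.521 in cRADΔ/Δ-MLPKO. Most of the difference in the sum was thus Ano10. Its share of the summed level was 28.2%, 25.9%, 27.2%, 29.4% and 26.9% in MLPKO mice 1 to 5 and 49.9%, 51.6%, 48.0%, 51.7% and 51.8% in cRADΔ/Δ-MLPKO mice 1 to 5, a mean of 27.5% ± 1.33 (SD, n = 5) and 50.6% ± 1.63 (SD, n = 5). Relative to its mean, the share varied by less between mice of a genotype than the levels themselves. With the longest annotated transcript as the length, the mean share of Ano10 was 30.0% in MLPKO and 53.6% in cRADΔ/Δ-MLPKO. The ratio of Ano10 to Ano8 per kb was 0.705 to 0.865 in MLPKO and 1.91 to 2.16 in cRADΔ/Δ-MLPKO. The ratio of Ano10 to Ano6 per kb was 1.08 to 1.84 in MLPKO and 3.60 to 4.92 in cRADΔ/Δ-MLPKO, and was lowest in MLPKO mouse 2, where Ano10 was low and Ano6 high.

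**Figure D2:**
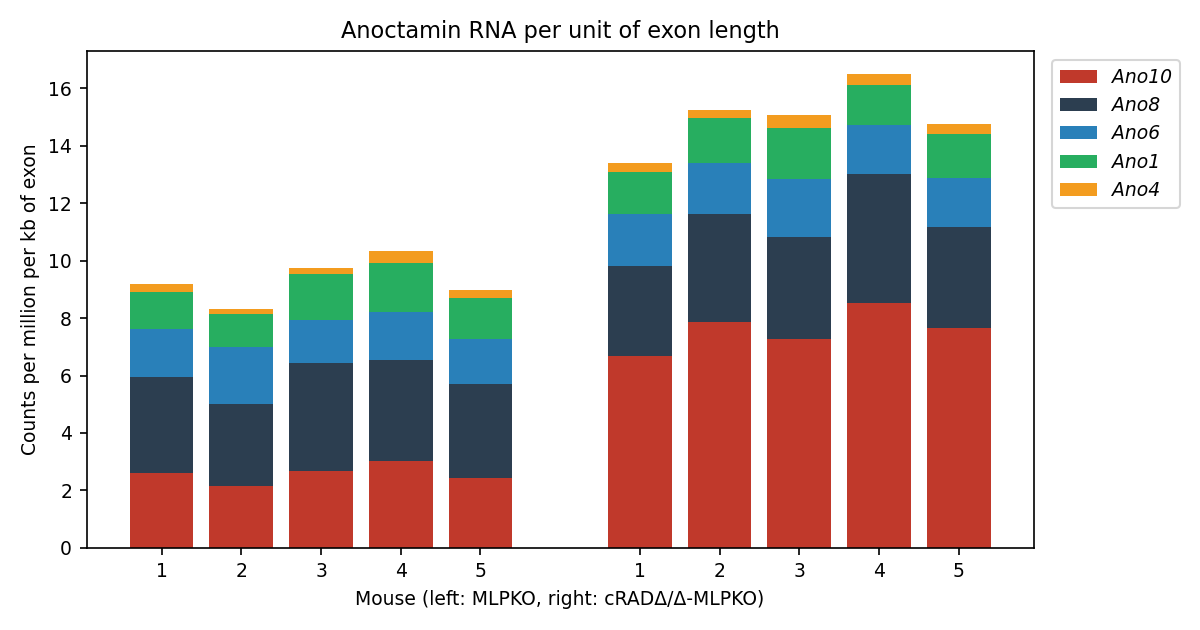
Stacked bars give the CPM per kb of exon of Ano10, Ano8, Ano6, Ano1 and Ano4 in each mouse, MLPKO on the left and cRADΔ/Δ-MLPKO on the right, on an axis from 0. The sum lay between 8.32 and 10.3 in MLPKO and between 13.4 and 16.5 in cRADΔ/Δ-MLPKO, and the Ano10 segment between 2.16 and 3.04 and between 6.68 and 8.53.

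Over all 13451 genes tested, 2.74% had an edgeR adjusted p under 0.05 between the genotypes and 6.62% had normalized counts that did not overlap. Of the 5 members tested, 1 was called and 1 did not overlap, Ano10 in both cases. Nothing is read from these counts because the group was selected on this difference. The median log2 fold change was 0.01 over all genes, and 95% of genes lay between −0.67 and 0.70. By the size of its log2 fold change, Ano10 ranked 71 of 13451 genes, and by mean CPM it was above 78.0% of them. The other 4 members tested were above 22.6% (Ano4) to 69.1% (Ano8) of genes by mean CPM and ranked 3047 or lower by the size of their log2 fold change.

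**Figure D3:**
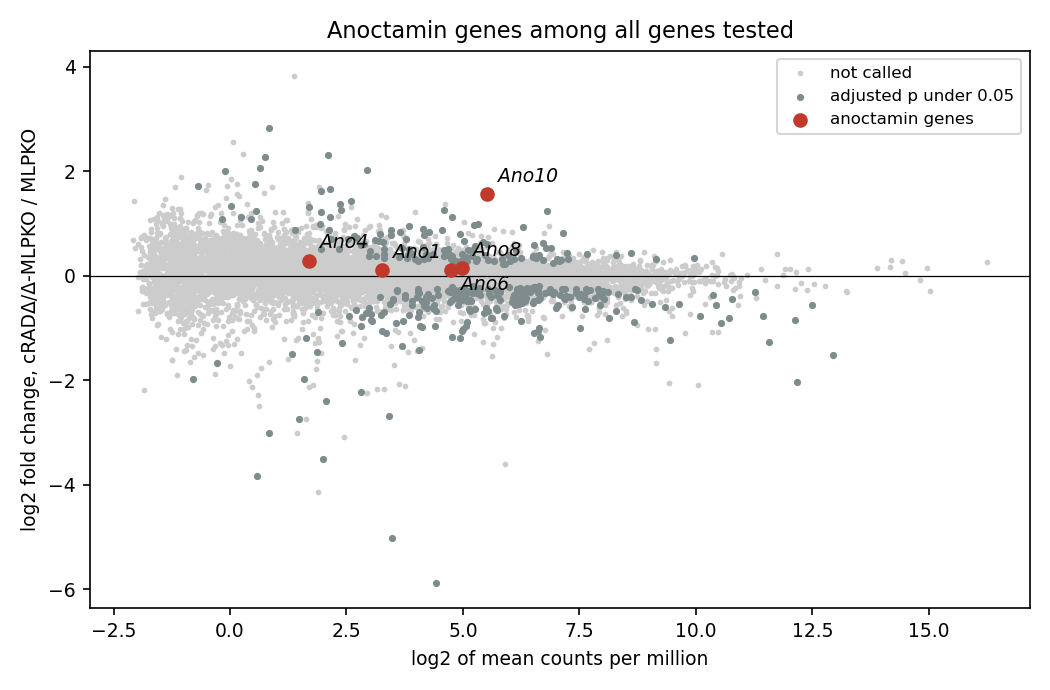
Each point is 1 of 13451 genes, with log2 mean CPM on the x axis, the log2 fold change (cRADΔ/Δ-MLPKO over MLPKO) on the y axis, called genes (adjusted p under 0.05) in dark grey and the 5 anoctamin genes that passed the filter in red. Ano10 lies at 1.56 and the other 4 between 0.10 and 0.29.

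Around Ano10 on chromosome 9, neither adjacent tested gene was called. The nearest tested gene on the lower side was Snrk, a kinase related to SNF1 and AMPK, 6172 bases from the span of Ano10, with 92.8 ± 8.28 (SD, n = 5) CPM in MLPKO and 104 ± 10.3 (SD, n = 5) CPM in cRADΔ/Δ-MLPKO, a log2 fold change of 0.17 (SE 0.08, edgeR adjusted p = 0.251). On the higher side it was Abhd5, the coactivator of adipose triglyceride lipase, 56123 bases away, with a log2 fold change of 0.07 (SE 0.08, edgeR adjusted p = 0.690). Of 26 genes tested within 1000000 bases, 1 was called, against 2.74% over all genes, 12 had a positive and 14 a negative log2 fold change, and the median was −0.01.

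The called gene was Clec3b, which encodes the plasminogen-binding protein tetranectin, 855427 bases from Ano10. Its CPM was 13.5, 7.10, 17.6, 21.3 and 11.9 in MLPKO mice 1 to 5 and 23.8, 32.1, 40.9, 37.5 and 36.8 in cRADΔ/Δ-MLPKO mice 1 to 5. The genotypes did not overlap, but MLPKO mouse 4 and cRADΔ/Δ-MLPKO mouse 1 were close. The log2 fold change of Clec3b was 1.26 (SE 0.24, edgeR adjusted p = 0.0260). The adjusted p from edgeR was 0.0504 to 0.0721 without MLPKO mouse 1 or 5 or without cRADΔ/Δ-MLPKO mouse 2, 3, 4 or 5. The log2 fold change was 1.19 to 1.28 in those fits, so the call depended on single mice. Those fits also called fewer genes over all genes, 50 to 142 against 369 with all mice. Over all fits with a mouse left out, the log2 fold change of Clec3b ran from 1.09 to 1.44. Klhl40, a muscle gene of nemaline myopathy, had the lowest value near Ano10, a log2 fold change of −0.81 (SE 0.26, edgeR adjusted p = 0.0995), and was named after its value was seen. Without MLPKO mouse 4, edgeR called Klhl40 and Zbtb47 as well as Clec3b.

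**Figure D4:**
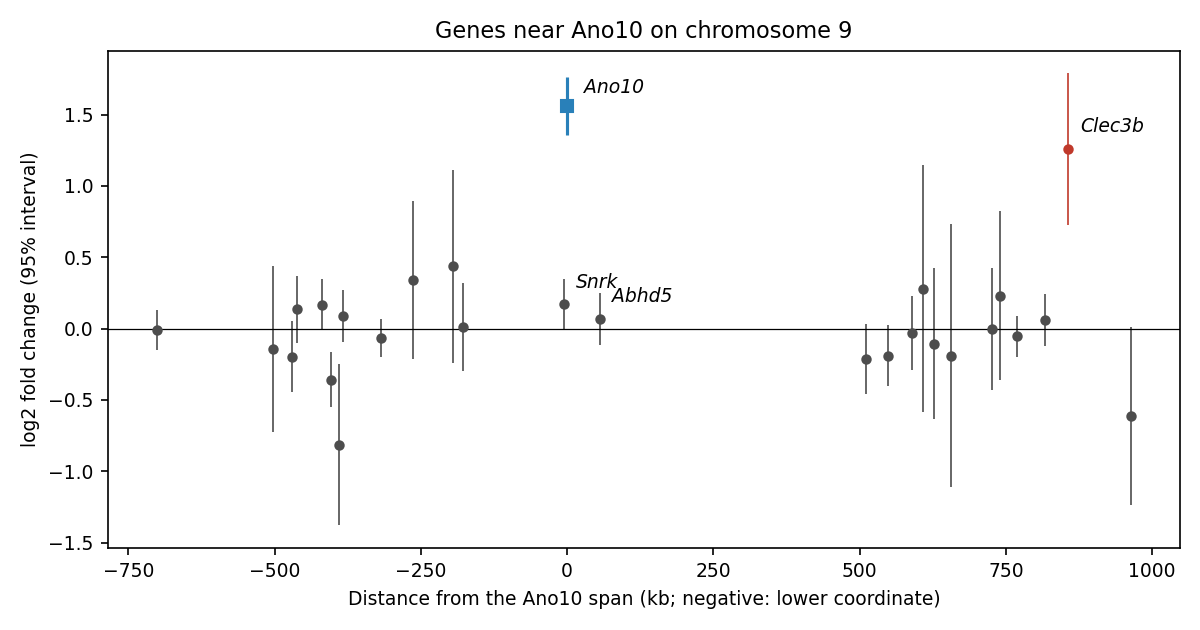
Log2 fold change (cRADΔ/Δ-MLPKO over MLPKO) with its 95% interval for the 26 tested genes within 1000000 bases of Ano10, against the distance from the Ano10 span in kb. Ano10 (square) is at 1.56, Clec3b (red) at 1.26, and the other genes lie between −0.81 and 0.44.

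Genes with related functions were counted in 7 lists that hold 109 tested genes. Of these, 2 were called, both lower in cRADΔ/Δ-MLPKO, against 2.74% called over all genes, and the median log2 fold change over the lists was −0.01 against 0.01 over all genes. Of 13 tested P4-ATPase flippases and their partner subunits, which move phospholipids toward the cytosolic leaflet, 1 fell, none rose and 12 did not pass. It was Atp8a2, a phosphatidylserine flippase, with a CPM of 43.8, 45.4, 39.7, 31.5 and 50.9 in MLPKO mice 1 to 5 and 24.2, 21.8, 13.2, 16.0 and 17.5 in cRADΔ/Δ-MLPKO mice 1 to 5. All MLPKO mice were above all cRADΔ/Δ-MLPKO mice, and the log2 fold change was −1.19 (SE 0.17, edgeR adjusted p = 0.0104). The median of the list was 0.11. In edgeR 4 of the 13 had an unadjusted p under 0.05, against 21.6% over all genes. DESeq2 called 2, against 10.1% over all genes.

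Of 11 tested scramblases outside the anoctamins, 1 fell, none rose and 10 did not pass, with a median log2 fold change of −0.07. In edgeR 4 of the 11 had an unadjusted p under 0.05, against 21.6% over all genes. DESeq2 called 2, against 10.1% over all genes. Plscr1, an interferon-inducible phospholipid scramblase, was at 20.2, 37.4, 16.9, 14.2 and 27.6 CPM in MLPKO mice 1 to 5 and at 12.6, 9.47, 11.01, 13.6 and 12.0 CPM in cRADΔ/Δ-MLPKO mice 1 to 5. MLPKO mouse 4 was close to the cRADΔ/Δ-MLPKO mice and MLPKO mouse 2 was highest. The log2 fold change of Plscr1 was −0.98 (SE 0.23, edgeR adjusted p = 0.0461). The adjusted p from edgeR rose to between 0.0734 and 0.105 without MLPKO mouse 1 or 5 or any one of the cRADΔ/Δ-MLPKO mice, with a log2 fold change of −1.04 to −0.91 in those fits. Without MLPKO mouse 2 it was −0.75 (edgeR adjusted p = 0.0445).

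In the other 5 lists edgeR called no gene. Over all genes, 21.6% had an unadjusted p under 0.05 in edgeR, and DESeq2 called 10.1% of the 12915 genes to which it gave an adjusted p, and the counts in these lists are set against those shares. None of the lists was tested as a set. The 6 tested relatives of the anoctamins, Tmem63 and Tmc genes, which encode mechanically gated channels or proteins of the same superfamily, had a median log2 fold change of 0.02, with 0 genes at an unadjusted p under 0.05 and 0 called by DESeq2. Tmem63b and Tmem63a, the most abundant of them, had log2 fold changes of −0.01 (SE 0.09) and 0.01 (SE 0.07). Of 21 tested genes from other chloride channel families, not all of whose members are channels, 3 had an unadjusted p under 0.05. DESeq2 called 1, Clic5, a chloride intracellular channel gene, with a log2 fold change of −0.76 (SE 0.22, edgeR adjusted p = 0.0747). Without MLPKO mouse 4 the edgeR adjusted p of Clic5 was 0.0253. Of 22 genes of contacts between the endoplasmic reticulum and the plasma membrane, where ANO8 acts, 5 had an unadjusted p under 0.05 and 1 was called by DESeq2, Gramd1b, a sterol transporter gene, which edgeR also called with the replicate number as a block. Jph2, which joins the plasma membrane to the sarcoplasmic reticulum in cardiomyocytes, had a log2 fold change of −0.18 (SE 0.07, edgeR adjusted p = 0.144).

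Coenzyme Q synthesis was listed because of the ataxia of ANO10. None of its 13 genes had an unadjusted p under 0.05, none was called by edgeR or DESeq2, and the median log2 fold change was 0.03. The most abundant were Coq8a, itself an ataxia gene, with a log2 fold change of 0.03 (SE 0.14, edgeR adjusted p = 0.921), and Coq9, with 0.08 (SE 0.07, edgeR adjusted p = 0.589). Membrane repair genes were listed because of the muscular dystrophy of ANO5. Of 23 tested, 8 had an unadjusted p under 0.05, against 21.6% over all genes, and the median log2 fold change was −0.07. DESeq2 called 5, against 10.1% over all genes. Of these, Anxa4, Anxa6, Anxa7 and Cavin4 were lower in cRADΔ/Δ-MLPKO and Ehd2 was higher. The most abundant of the 23 were Trim72, which nucleates the repair patch, with a log2 fold change of −0.21 (SE 0.12, edgeR adjusted p = 0.343), and Ahnak, a large scaffold protein gene, with 0.15 (SE 0.16, edgeR adjusted p = 0.626).

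**Figure D5:**
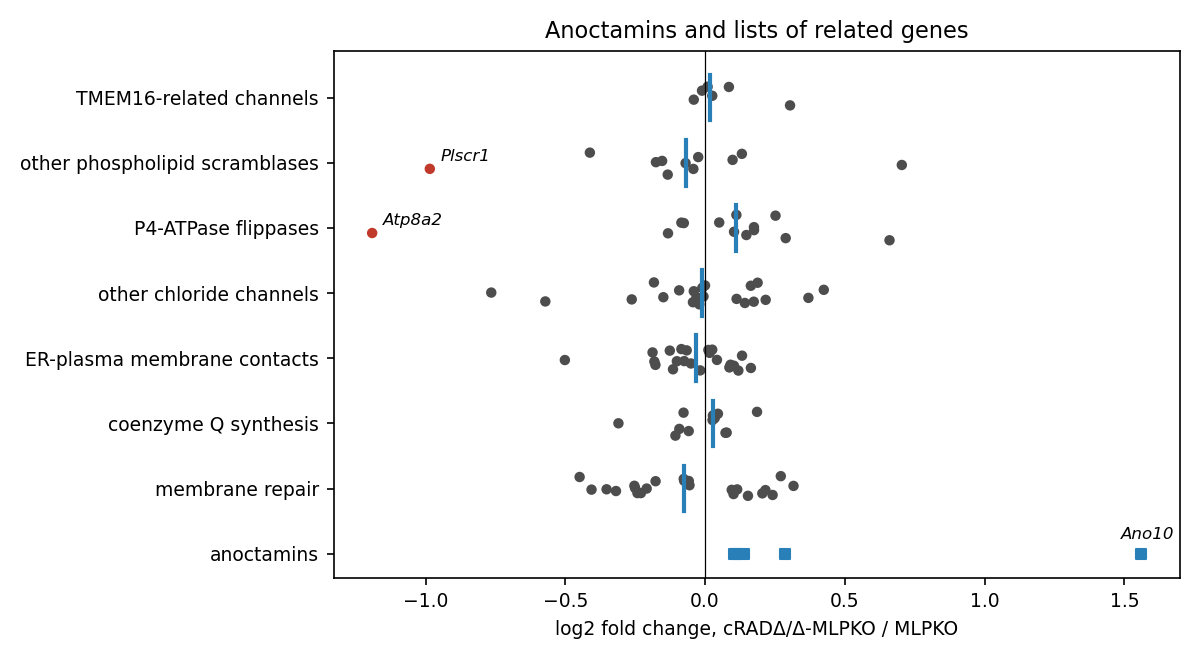
Log2 fold changes (cRADΔ/Δ-MLPKO over MLPKO) of the tested genes in 7 lists of related genes (points, with the list median as a blue line and called genes in red) and of the 5 tested anoctamin genes (blue squares). List medians lie between −0.07 and 0.11, the 2 called genes at −1.19 and −0.98, and Ano10 at 1.56.

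Likeness to Ano10 was measured as Pearson's r of log2 CPM and is given as a description, since all genes share the same 10 libraries and the genes were picked for their r out of all genes tested. Over the 10 mice, where the genotypes form 2 separate clusters in Ano10, the highest r belonged to Cfap20 (0.965), Sh3bp4 (0.964), Ccni (0.954), Ece1 (0.954) and Myadm (0.954). None of these matched the size of the Ano10 difference, with log2 fold changes of 0.33, 0.54, 0.52, 0.16 and 0.28. The r of the other anoctamins with Ano10 over the 10 mice was 0.54 for Ano8, 0.49 for Ano4, 0.41 for Ano1 and 0.36 for Ano6. With the mean of each genotype subtracted, the genes most like Ano10 were Sdhb (0.979), a subunit gene of respiratory complex II, Abcc9 (0.957), a regulatory subunit gene of ATP-sensitive potassium channels, Ctdnep1 (0.957), a phosphatase gene of the nuclear envelope, L3hypdh (0.956) and Gstm1 (0.953). Their log2 fold changes lay between −0.01 and 0.14. On the same measure Ano8 had an r of 0.84, which ranked 231 of the genes tested, and Ano6 an r of −0.57. In both genotypes the mouse with the lowest Ano10 also had the lowest Ano8, MLPKO mouse 2 and cRADΔ/Δ-MLPKO mouse 1. These mice also had the lowest total counts of their genotypes, 33457406 and 33759811, and the part of depth was not tested. MLPKO mouse 2 had the highest Ano6 of its genotype.

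Cell type markers were summed in CPM beside these results. The 7 cardiomyocyte markers summed to 62219 to 72583 CPM in MLPKO and 50069 to 60240 CPM in cRADΔ/Δ-MLPKO, without overlap, a ratio of means of 0.825, and 1 of 7, Tnnt2, was called lower. The 6 endothelial markers summed to 762 to 886 CPM in MLPKO and 898 to 1043 CPM in cRADΔ/Δ-MLPKO, also without overlap, a ratio of 1.16, with none called by edgeR. The 7 macrophage markers summed to 119 to 172 CPM and 147 to 266 CPM, a ratio of 1.41, with overlap, all 7 positive in log2 fold change and none called by edgeR. Of 7 smooth muscle and pericyte markers, 6 were tested, with 3 positive and 3 negative log2 fold changes and a median of −0.0032. Acta2 and Rgs5 were called higher, and the sums, 501 to 730 CPM and 653 to 875 CPM, overlapped with a ratio of 1.28. The sums of the fibroblast markers (ratio 1.02) and of the lymphocyte, Schwann cell, mesothelial, adipocyte and atrial markers (ratios 0.698 to 1.35) overlapped, with none called by edgeR. Of the skeletal muscle markers, Myh1 and Myh4 were at no more than 3 counts in every mouse. The part of cell composition in the Ano10 difference was not tested.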

How the data were processed

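The authors used STAR to align reads of polyadenylated RNA to GRCm39 and featureCounts to count reads per gene (versions and settings for strand, read pairs and shared reads are not given in the sources used here), and the deposited values are raw counts for 60676 genes, of which 3491 were blank in all 10 mice. Total counts were 33457406 to 49965101 per mouse. Genes were named and placed with GENCODE M39. The filter followed that of the study, with over 10 counts in 6 or more of the 10 mice and without Gm and Rik names, but kept 36 genes without a symbol. It left 13451 genes, a set that need not be the gene set of the study. The comparison of the genotypes was made in edgeR 4.0.16 by quasi-likelihood (R 4.3.3, TMM, Benjamini-Hochberg over all genes tested, called at an adjusted p under 0.05), a step that was also tested on simulated data. DESeq2 1.42.0, the tool of the study, was an alternative, with RLE and upper quartile factors, other filters, robust dispersion, a replicate block, other windows and lengths, and each mouse left out. CPM used TMM library sizes, and log2 CPM a prior count of 2. Intervals are 95%. The p-values set the difference between the genotypes against the variation between mice, which is estimated for each gene with information from all genes.

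The labels number the mice 1 to 5 in each genotype, but equal numbers are different animals, and the deviations of same-numbered mice from their group means correlated by −0.04 to 0.15, so no block was used. The members, related lists and markers were chosen with earlier results of these data known. Named genes were all members, Ano3 and Ano7, up to 5 called genes per list (the 2 most abundant where none was called), the nearest and the called genes near Ano10, the 5 genes most like Ano10 on each measure, Rrad and Csrp3. Gramd1b, Zbtb47, Klhl40 and the membrane repair genes called by DESeq2 were named after their values were seen. Figures were drawn with matplotlib 3.10.9 in Python 3.11.15.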

Additional observations from a re-analysis of the deposited data

Results flagged for a closer look

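Both results in which 1 mouse lay far from the other 4 of its group by Dixon's criterion were coenzyme Q genes in MLPKO mouse 2, out of 66 groups of 5 mice examined, where chance flags about 1 in 20. Coq8a was at 388 CPM in that mouse and at 659 to 718 CPM in the other 4 MLPKO mice. Coq9 was at 373 CPM in that mouse and at 437 to 459 CPM in the other 4. The same mouse had the lowest Ano10, Ano8, Ano1 and Ano4 and the highest Ano6 of its group, and none of the 5 tested anoctamins met the criterion.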

How the results depend on the processing

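Under every alternative run, Ano10 was the 1 member called, with a log2 fold change of 1.50 to 1.63. Of all genes tested, edgeR called 369, DESeq2 1298, and edgeR between 50 and 826 with a mouse left out (50, 57, 100, 105, 107 and 142 without cRADΔ/Δ-MLPKO mouse 5, MLPKO mouse 5, cRADΔ/Δ-MLPKO mouse 4, cRADΔ/Δ-MLPKO mouse 3, MLPKO mouse 1 and cRADΔ/Δ-MLPKO mouse 2, and 826 without MLPKO mouse 4). The cause was not tested. Near Ano10, 1 gene was called in the main comparison, 2 with DESeq2 (Clec3b and Zbtb47), 0 within 500000 bases, which leaves Clec3b outside, and 0 to 3 with a mouse left out. In the related lists 2 genes were called, 11 with DESeq2, 1 with robust dispersion, where Plscr1 had an adjusted p of 0.0602, and 1 to 6 with a mouse left out. With the replicate number as a block, 281 genes were called over all genes, 1 member and a log2 fold change of 1.56 for Ano10, and 2 of 5 mice correlated best with the mouse of their own number. Of the related genes, Plscr1 lost its call in the block (edgeR adjusted p = 0.0860) and Gramd1b gained one. Genes whose log2 fold change was near 0 turned sign. These were Tmem63b and Ctdnep1 with upper quartile factors (0.013 and 0.013) and, with a mouse left out, Tmem63b (−0.081 to 0.051), Tmem63a (−0.020 to 0.055), Coq8a (−0.096 to 0.088), Ctdnep1 (−0.055 to 0.022), L3hypdh (−0.052 to 0.21) and Gstm1 (−0.026 to 0.068). Over the 33 named genes that were tested and 594 alternative values, 544 kept direction and side of the threshold, 24 lost and 6 gained a call, and 20 turned sign. Of the 5 genes most like Ano10, 0 to 5 were shared with a prior count of 0.5 or Spearman's rho over the 10 mice, and 1 to 5 with genotype means subtracted. At this depth Ano2, Ano5 and Ano9 could not be compared.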
